A study of Mus musculus with 19 samples.

Results

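Mitosis and spindle genes were followed across the early mouse lens and tooth germ. The set was a named list of 38 genes grouped by function, drawn up with earlier results of these arrays known. Each gene was read from 1 probe set, the one that named only that gene and had the highest mean log2 signal over the 19 arrays. By this rule 37 of the 38 genes had a value, out of 18193 genes with a probe set of their own. All 37 passed the filter on low signal, which left 13320 genes for testing. No probe set of the annotation used here named Ccnb1 alone, and this gene was not analysed here.

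The arrays held total RNA of wild-type embryos of the ICR strain, an outbred mouse stock. Lenses were microdissected at the embryonic days E10.5, E11.5 and E12.5, with 3 arrays for each stage, and their control was whole embryonic body labelled as spanning E10.5 to E12.5, with 4 arrays. Tooth germs were taken at E13.5, with 3 arrays, and had a body control of their own that spanned E11.5 to E13.5, with 3 arrays. No group carried an allele or a treatment. The labels do not say whether the arrays of a group came from separate litters or pools, so the p-values measure the spread between these arrays only. The study set out to find genes enriched in lens and tooth over the body, in order to rank candidate genes for cataract.

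Mitosis begins when the kinase Cdk1, bound to A-type and B-type cyclins, becomes active. Chromosomes condense, attach through their kinetochores to a bipolar spindle, and are pulled apart once the spindle checkpoint lets the anaphase promoting complex act. The central spindle and a contractile ring then split the cell. Transcripts of these proteins are made mostly from S phase to mitosis, so their amount in a tissue depends in part on the share of cells that are dividing. In the lens, cells at the front of the vesicle stay as a dividing epithelium, while those at the back leave the cell cycle, elongate as primary fibres and accumulate crystallins over the stages sampled here. In whole tissue RNA, fewer dividing cells and less of a transcript per dividing cell cannot be told apart.

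Promoters of such genes often carry a cell cycle homology element, written TTTGAA or TTCGAA, near the start of transcription, together with CCAAT boxes a short way upstream. RefSeq promoter windows of the GRCm38.p6 build, running from 250 bases before to 50 bases after the start, were given for 31 of the 38 genes. TTTGAA, read on both strands, was present in 21 of 31 windows (67.7%), against 18.1% of 27025 RefSeq promoters of the same length. TTCGAA, which reads the same on both strands, was present in 4 windows (12.9%), against 1.57%. CCAAT on either strand was present in 23 windows (74.2%), against 37.9%, and 2 or more copies in 16 (51.6%), against 12.2%. The 3 motifs share no overlapping match in the windows printed here. A match describes letters in a window and does not show that a factor binds there.

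The 6 windows printed next run from 150 bases before to 30 bases after the start, 5′ to 3′ on the gene's strand, with every motif match in capitals (ATTGG and TTCAAA are CCAAT and TTTGAA on the other strand). Cenpe is shown as the member with the largest fall between lens E10.5 and E12.5. Cenpa, Bub1, Mki67 and Cenpf were picked from the members that fell most and had a TTTGAA or TTCGAA match inside the printed window. Aurka (-1.82) and Melk (-1.61) fell more than Cenpf (-1.60) but had no such match inside it and are not shown. Anln (-1.62) also fell more than Cenpf and is not shown, though its window held a TTTGAA match at position 22, without a CCAAT. The printed windows therefore do not give the motif content of the members that fell most. Cdc25b is shown because its fall did not pass the test. The Cenpe window is chr3:135212413-135212592 (+ strand) and that of Cenpa is chr5:30666736-30666915 (+ strand). The Bub1 window is chr2:127831830-127832009 (- strand) and that of Mki67 is chr7:135716350-135716529 (- strand). The Cenpf window is chr1:189688057-189688236 (- strand) and that of Cdc25b is chr2:131186798-131186977 (+ strand).
Cenpe: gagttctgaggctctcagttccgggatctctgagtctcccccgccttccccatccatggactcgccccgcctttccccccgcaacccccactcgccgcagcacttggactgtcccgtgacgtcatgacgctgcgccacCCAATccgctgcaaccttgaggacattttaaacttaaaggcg
Cenpa: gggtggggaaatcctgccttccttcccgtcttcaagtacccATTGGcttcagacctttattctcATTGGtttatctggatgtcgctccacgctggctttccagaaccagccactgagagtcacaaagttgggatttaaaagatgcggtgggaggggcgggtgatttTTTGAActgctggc
Bub1: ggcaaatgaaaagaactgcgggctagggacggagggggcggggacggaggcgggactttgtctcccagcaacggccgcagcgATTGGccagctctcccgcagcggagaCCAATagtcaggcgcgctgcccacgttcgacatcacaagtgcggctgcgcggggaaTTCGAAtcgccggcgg
Mki67: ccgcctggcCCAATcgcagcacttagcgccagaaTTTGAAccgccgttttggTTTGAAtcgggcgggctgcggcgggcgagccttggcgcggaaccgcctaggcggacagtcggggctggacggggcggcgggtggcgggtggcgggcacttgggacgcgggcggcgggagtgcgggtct
Cenpf: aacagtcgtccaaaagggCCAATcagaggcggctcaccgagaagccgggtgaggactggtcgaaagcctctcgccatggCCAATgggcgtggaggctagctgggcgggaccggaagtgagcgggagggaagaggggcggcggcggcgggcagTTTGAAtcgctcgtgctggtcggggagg
Cdc25b: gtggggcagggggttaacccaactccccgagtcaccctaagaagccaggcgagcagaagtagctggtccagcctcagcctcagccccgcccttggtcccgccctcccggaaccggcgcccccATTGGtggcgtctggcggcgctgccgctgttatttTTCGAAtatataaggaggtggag
Cenpe, the member with the largest fall, held a CCAAT 12 bases before the start and neither form of the homology element. Cenpa and Cenpf each held 2 CCAAT matches upstream and a TTTGAA after the start, at positions 17 and 3. Bub1 and Cdc25b held the TTCGAA form after the start, at positions 15 and 8.

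The deposited signals had array medians between 42.5 and 46.5 over all 45101 probe sets, and the log2 median over the tested genes was 7.343 to 7.705. The 6 general lens markers (Pax6, Prox1, Foxe3, Pitx3, Cryaa and Maf) were called higher in E10.5 and in E12.5 lens than in the body, and 6 neuronal markers were called lower at both stages. The third E10.5 array stood apart, and its fibre markers went against its stage label. Its mean log2 signal over 10 lens fibre markers was 11.30, against 7.42 and 7.38 on the other E10.5 arrays, 9.04 to 10.46 at E11.5 and 12.18 to 12.31 at E12.5. Its mean over the 37 mitosis genes, 9.81, lay near the other E10.5 arrays, 9.90 and 10.04. The surface ectoderm genes Epcam and Krt8 also read near the other E10.5 arrays on it, at 9.92 and 9.71, against at most 7.34 at E11.5. Whether it holds tissue of 1 stage alone was not tested. Counts of the 37 mitosis genes called against E10.5 are therefore also given without it. Those of the other gene and marker lists include it. Within the lens series, 6 of 13 arrays (E10.5 arrays 1 and 2, E11.5 array 1, E12.5 array 1, body arrays 2 and 3) had a BioB hybridisation control of 9.33 to 11.16 on the log2 scale, and are called the high-control arrays here; the rest had 7.14 to 8.02.

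The mitosis genes fell in the lens between E10.5 and E12.5, with most of the fall after E11.5. Averaged over the 37 genes, log2 signal was 9.90, 10.04 and 9.81 on the E10.5 arrays, 9.49, 9.36 and 9.45 on the E11.5 arrays, and 8.63, 8.56 and 8.30 on the E12.5 arrays. The 3 stages did not overlap, and the second drop was the deeper. The 4 body arrays of the lens series read 9.74 to 9.79, below every E10.5 array and above every later lens array.

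**Figure D1:**
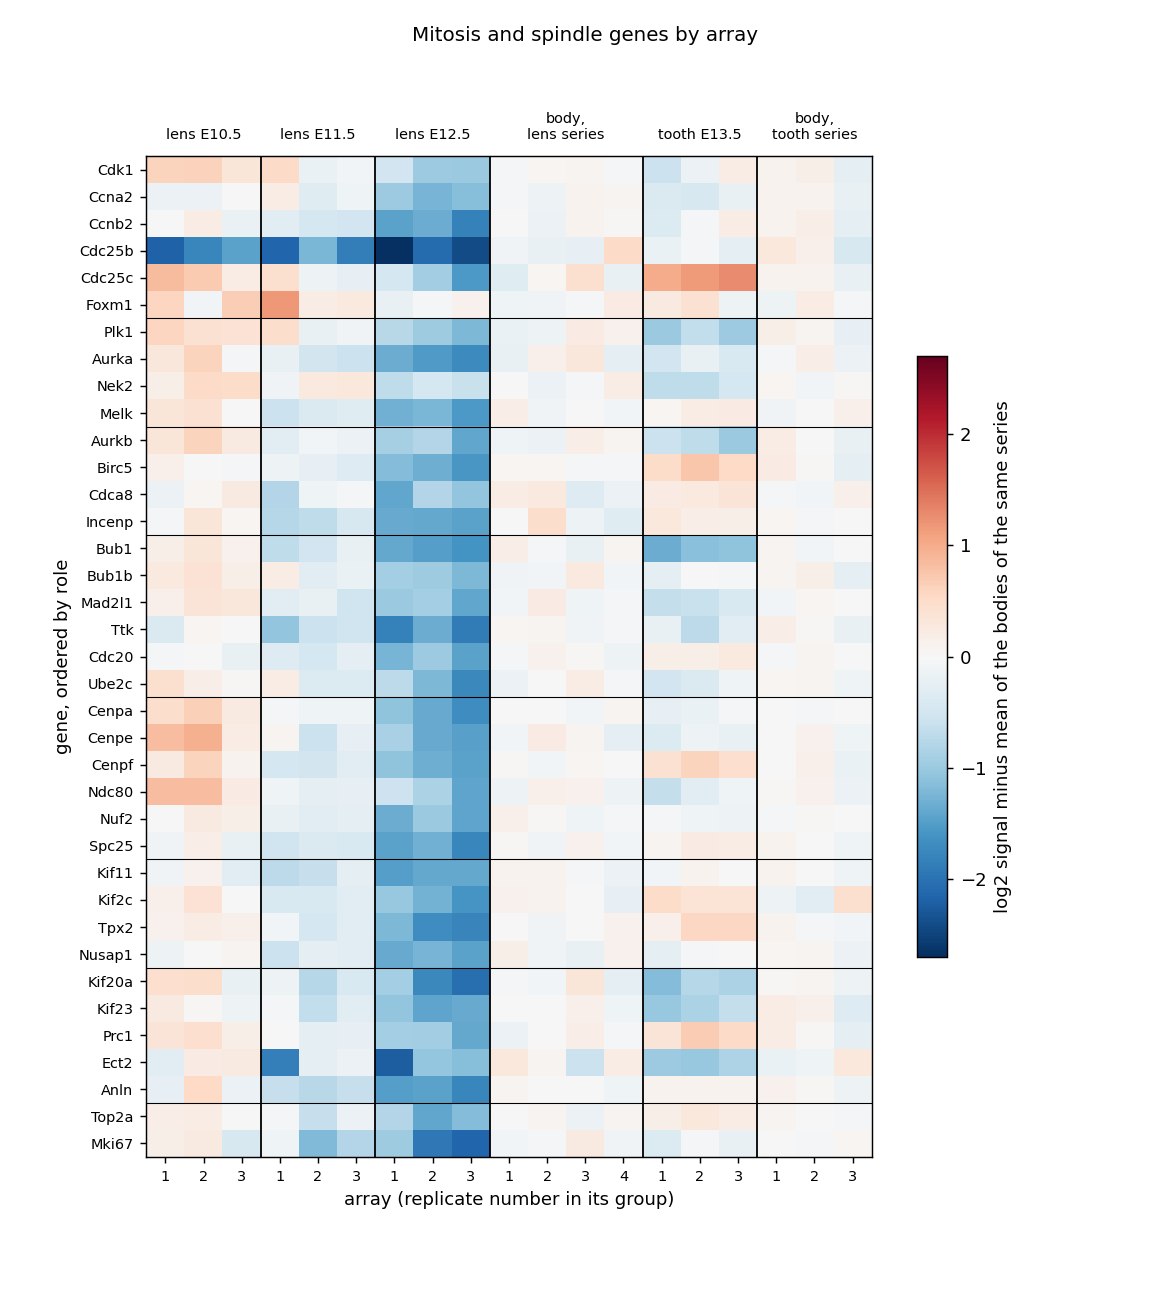
Log2 signal of each of 37 mitosis and spindle genes (rows, grouped by role between the horizontal lines) on each of 19 arrays (columns), after subtracting the mean of the body arrays of the same series. Blue is lower and red is higher than the body; the E12.5 lens columns are blue in nearly every row, Cdc25b is blue at all 3 lens stages, and the tooth columns are mixed.

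Between E10.5 and E11.5, 10 of the 37 genes were called lower and none higher at an adjusted p under 0.05 in limma, beside 2.74% of all tested genes called lower and 1.52% called higher. The 10 were Aurka, Melk, Incenp, Bub1, Mad2l1, Cenpa, Cenpe, Cenpf, Ndc80 and Anln, and the median over all 37 was -0.45 on the log2 scale. At an adjusted p under 0.05, the count was 6 without E10.5 array 1, 1 (Cenpf) without E10.5 array 2, 5 without E11.5 array 2, and 0 when limma saw the 6 arrays of the 2 stages alone, with medians no higher than -0.39 under any alternative run. Without the third E10.5 array it was 12.

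Between E11.5 and E12.5, 34 genes were called lower and none higher, beside 3.45% of all tested genes called lower, 3.02% called higher, and 4.75% of 6668 other genes of similar mean called lower. The median difference was -0.94, and each of the 37 genes lay below -0.58, the 5th percentile of the genes of similar mean. Cdc25b, Foxm1 and Ect2 did not pass the test. Replicate numbers paired the E11.5 and E12.5 arrays in their deviations, and the count was also 34 with the number as a block. From the 6 arrays of the 2 stages alone the count was 12, and within the high-control arrays, 1 for each stage, it was 2.

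Over the whole interval, 35 genes were called lower and none higher, beside 13.2% of all tested genes called lower, 8.91% called higher, and 17.7% of genes of similar mean called lower. The median difference was -1.44, with quartiles of -1.60 and -1.33, whereas the median of the genes of similar mean was -0.10. All 3 E12.5 arrays lay below all 3 E10.5 arrays for the same 35 genes, beside 21.5% of all tested genes that separated in that direction. The count was 35 without the third E10.5 array, and 35 within the high-control arrays and within the low-control arrays. Within the high set E12.5 had 1 array, and within the low set E10.5 had 1, the third, so in each test a lone array was assumed to vary like the arrays of the other groups.

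The mean fell at both steps for 34 genes, the exceptions being Ccna2, Cdc25b and Foxm1, whose E11.5 means were above their E10.5 means. For 35 genes the second fall was larger than the first. All genes were read on the same lens arrays, and the shares of all tested genes with these orders were not counted. No gene was called in either direction in limma's test of this difference between the steps, beside 0.15% of all tested genes called lower and 0.3% called higher, and the median difference between the steps was -0.45.

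**Figure D2:**
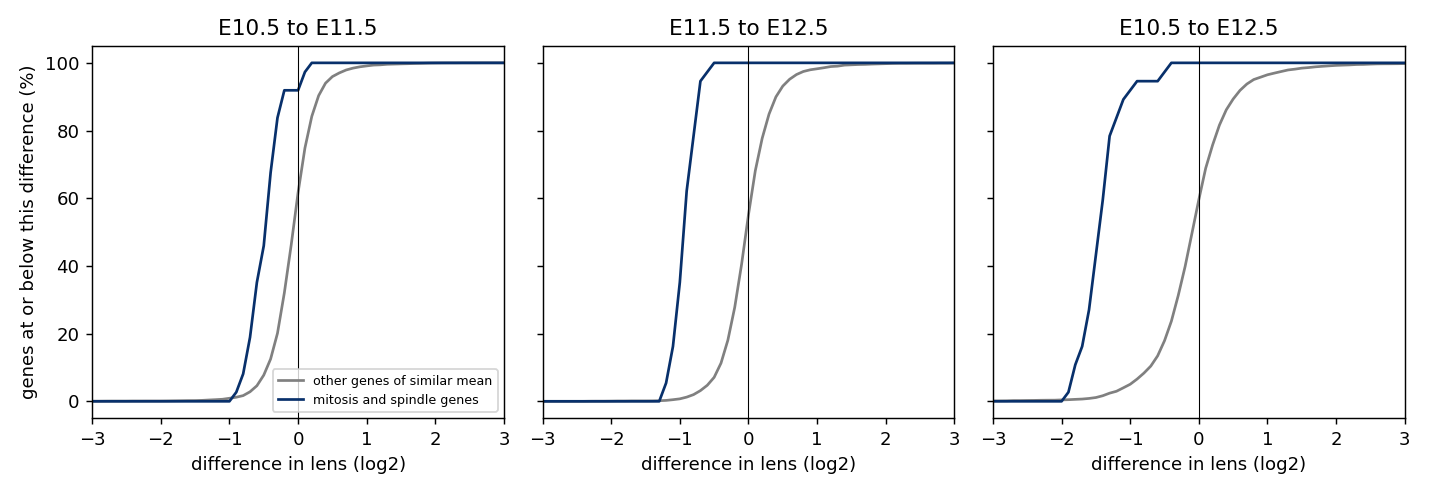
Cumulative share of genes (vertical axis, percent) at or below each log2 difference between lens stages (horizontal axis), for 37 mitosis and spindle genes (dark blue) and 6668 other genes of similar mean (grey). The blue curve lies left of the grey in each panel, and from E11.5 to E12.5 it reaches 100% below -0.5.

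Among the entry kinase, its cyclins and their activators, 4 of 6 genes were called lower from E10.5 to E12.5. Cdk1, the kinase that starts mitosis, read 11.52, 11.55 and 11.24 at E10.5, 11.43, 10.75 and 10.84 at E11.5, then 10.40, 9.93 and 9.91 at E12.5 on the log2 scale. Its E12.5 arrays lay below all others, while E11.5 array 1, a high-control array, read within the E10.5 range. The fall was -1.35 ± 0.20 (SE, adjusted p = 7e-05), a 2.56-fold drop. Ccnb2, the B-type cyclin measured here, averaged 10.19 at E10.5 and read 9.86, 9.69 and 9.66 at E11.5, then 8.72, 8.82 and 8.34 at E12.5, so that its stages separated in order. Ccnb2 fell by 1.56 ± 0.17 on the log2 scale. Ccna2, the A-type cyclin that acts from S phase on, held its level until E11.5 (0.03 ± 0.15) and then fell by 1.05 ± 0.15.

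Of the phosphatases that activate Cdk1, Cdc25c was called lower and Cdc25b was not, and the difference between them was not tested. Cdc25c, active at the entry into mitosis, read 8.63, 8.48 and 7.99 at E10.5 and 7.31, 6.84 and 6.22 at E12.5, a difference of -1.58 ± 0.25. Cdc25b read 6.25, 6.67 and 7.0 at E10.5, 6.29, 7.21 and 6.58 at E11.5, then 5.76, 6.37 and 6.02 at E12.5. Its stages overlapped, and the difference of -0.59 ± 0.26 did not pass the test (adjusted p = 0.12). At each lens stage the high-control arrays read lower for Cdc25b than the others, by 0.54, 0.61 and 0.43. With the control set as a block, Cdc25b was called lower over the interval, which made 36 genes in place of 35.

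Foxm1, a transcription factor that drives genes of G2 and mitosis, had the smallest difference over the interval. It read 7.82, 7.17 and 7.91 at E10.5, 8.41, 7.44 and 7.51 at E11.5, then 7.04, 7.20 and 7.35 at E12.5, with E10.5 array 2 within the E12.5 range. The difference was -0.43 ± 0.23 (adjusted p = 0.21) on the probe set used. A different Foxm1 probe set was called lower, at -0.88 ± 0.23 (adjusted p = 0.0076), and the remaining one read -0.64 ± 0.27 and was not called.

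All 4 of the other mitotic kinases were called lower from E10.5 to E12.5. Aurka, which acts at spindle poles, read 10.21, 10.51 and 9.88 at E10.5, 9.71, 9.41 and 9.34 at E11.5, then 8.57, 8.38 and 8.20 at E12.5. Its stages separated in order, and the fall was 3.53-fold (-1.82 ± 0.18, adjusted p = 9.5e-07). Plk1, which acts from mitotic entry to cytokinesis, read 10.08, 9.92 and 9.89 at E10.5 and 8.75, 8.55 and 8.28 at E12.5, a difference of -1.44 ± 0.18. Melk fell by 1.61 ± 0.14. Nek2, a centrosomal kinase, fell the least of the 4, by 0.98 ± 0.14, and its E11.5 arrays (8.81, 9.17 and 9.19) overlapped the E10.5 arrays (9.05, 9.42 and 9.40).

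The chromosomal passenger complex corrects faulty attachments and acts in cytokinesis, and all 4 of its members were called lower. Aurkb, the kinase of the complex, read 9.67, 9.96 and 9.59 at E10.5, 9.06, 9.27 and 9.20 at E11.5, then 8.46, 8.56 and 7.95 at E12.5. Its stages separated in order, and it fell by 1.41 ± 0.17. Birc5, also called survivin, was not called at the first step, -0.28 ± 0.14, and was at the second, -1.11 ± 0.14. Incenp, the scaffold of the complex, fell by 1.5 ± 0.17 over the interval. Cdca8, also called borealin, read 10.25, 10.47 and 10.65 at E10.5, 9.61, 10.30 and 10.36 at E11.5, then 9.01, 9.62 and 9.35 at E12.5. The high-control arrays read lower for Cdca8 at the 3 stages, by 0.29, 0.72 and 0.48, and E11.5 array 1 lay within the E12.5 range.

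All 6 genes of the spindle checkpoint and anaphase onset were called lower. Bub1, a checkpoint kinase at kinetochores, read 10.53, 10.70 and 10.48 at E10.5, 9.68, 9.86 and 10.18 at E11.5, then 8.98, 8.88 and 8.75 at E12.5. Its stages separated in order, and it fell 3.26-fold (-1.70 ± 0.14, adjusted p = 1.6e-07). Ttk, the kinase that recruits checkpoint proteins, fell by 1.59 ± 0.19. Mad2l1, which holds back Cdc20, fell by 1.38 ± 0.15, and Bub1b, which encodes the checkpoint protein BubR1, by 1.29 ± 0.16. Cdc20, the activator of the anaphase promoting complex, read 11.66, 11.72 and 11.51, then 11.36, 11.23 and 11.44, then 10.45, 10.71 and 10.25, a difference of -1.16 ± 0.13 between the outer stages. Ube2c, the ubiquitin-conjugating enzyme that works with the complex, fell by 1.44 ± 0.21.

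The centromere and kinetochore genes had the lowest median of the roles with 4 or more genes, -1.59, and all 6 were called lower. Cenpe, a kinetochore motor, read 9.88, 10.01 and 9.24 at E10.5, 9.12, 8.46 and 8.82 at E11.5, then 8.16, 7.68 and 7.58 at E12.5. The third E10.5 array was the lowest of its stage and still above all E11.5 arrays, and the fall of 3.73-fold (-1.90 ± 0.21, adjusted p = 2.2e-06) was the largest of the 37. Cenpa, the histone H3 variant that marks centromeres, read 10.88, 11.06 and 10.65, then 10.37, 10.30 and 10.29, then 9.33, 9.05 and 8.73, a difference of -1.83 ± 0.14. Another Cenpa probe set was not called over the interval, as given below. Cenpf, a large kinetochore protein of late G2 and mitosis, fell by 1.60 ± 0.14. Of the Ndc80 complex, which binds microtubules, Ndc80 fell by 1.57 ± 0.20, Spc25 by 1.47 ± 0.14 and Nuf2 by 1.39 ± 0.13.

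Spindle motors and microtubule proteins fell together, with 4 of 4 called lower. Tpx2, which activates Aurka on spindle microtubules, read 10.45, 10.53 and 10.46 at E10.5, 10.26, 9.86 and 10.05 at E11.5, then 9.12, 8.65 and 8.55 at E12.5. The first step, -0.42 ± 0.16, was not called and the second, -1.28 ± 0.16, was. Tpx2 had other probe sets that were not called from E10.5 to E12.5, as given below. Kif11, the motor that pushes spindle poles apart, fell by 1.32 ± 0.14, Kif2c, which shortens microtubules at centromeres, by 1.48 ± 0.18, and Nusap1, which bundles microtubules near chromosomes, by 1.34 ± 0.14.

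All 5 genes of the central spindle and cytokinesis were called lower over the interval. Anln, the actin-binding protein anillin of the contractile ring, read 9.24, 9.99 and 9.31 at E10.5, 8.83, 8.71 and 8.83 at E11.5, then 7.97, 8.02 and 7.69 at E12.5, a difference of -1.62 ± 0.16. Kif20a, a kinesin of the central spindle, fell by 1.81 ± 0.25, Prc1, which bundles central spindle microtubules, by 1.41 ± 0.16 and Kif23, a further central spindle kinesin, by 1.33 ± 0.18. Ect2, which activates RhoA at the cleavage site, read 8.78, 9.29 and 9.32 at E10.5, 7.23, 8.81 and 8.91 at E11.5, then 6.85, 8.03 and 7.92 at E12.5. E11.5 array 1 lay below 2 of the 3 E12.5 arrays, and its first array was the lowest at each stage. The Ect2 difference over the interval was -1.53 ± 0.36 (adjusted p = 0.0044), with the widest error of the 37. The high-control arrays read lower for Ect2 at all 3 stages, by 0.28, 1.63 and 1.13.

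Both genes of the mitotic chromosome were called lower. Mki67, which coats mitotic chromosomes and is the antigen Ki-67 used to stain cycling cells, read 11.54, 11.63 and 10.94 at E10.5, 11.26, 10.18 and 10.58 at E11.5, then 10.43, 9.46 and 9.24 at E12.5. The E12.5 arrays overlapped the E11.5 arrays, and the high-control arrays read 0.65, 0.88 and 1.08 higher at the 3 stages. The difference over the interval was -1.66 ± 0.27. Top2a, which untangles sister chromatids, fell by 1.25 ± 0.16.

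Over the 37 genes, 18 read higher and 6 read lower on the high-control arrays at each of the 3 lens stages. Besides Mki67 and Ect2, the widest mean gaps were those of Kif20a, higher by 0.66, 0.47 and 0.97, and of Cdc25c, higher by 0.56, 0.61 and 0.78. Cenpe read higher by 0.71, 0.48 and 0.53, Ube2c by 0.27, 0.55 and 0.78 and Ndc80 by 0.62, 0.13 and 0.58. The part of the control signal in these differences between arrays of a stage was not tested.

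The body of the lens series gave an outside reference for each stage. At E10.5, 6 genes were called higher than the body, beside 13.5% of all tested genes, and 1 was called lower, beside 19.1%. The 6 were Cdk1 (0.51 ± 0.19), Plk1 (0.46 ± 0.17), Nek2 (0.39 ± 0.13), Cenpa (0.45 ± 0.13), Cenpe (0.67 ± 0.19) and Ndc80 (0.63 ± 0.19). The share of 6 in 37 was near the background. The count of higher genes was 2 without E10.5 array 1, 1 without E10.5 array 2, 3 without body array 1 or body array 2, and 6 without the third E10.5 array.

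At E11.5, 13 genes were called lower than the body, beside 22.3% of all tested genes, and none was called higher, beside 14.7%. The median over the 37 genes was 0.17 in the E10.5 comparison and -0.33 in that of E11.5. The 13 were Ccnb2, Cdc25b, Melk, Incenp, Bub1, Ttk, Cdc20, Cenpf, Spc25, Kif11, Nusap1, Anln and Mki67. With arrays centred on their medians 5 genes were called lower. Of 28 other probe sets of the 37 genes with a mean above the filter level, 0 were called lower and 5 higher.

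At E12.5, 36 genes were called lower than the body and none higher, beside 26.7% of all tested genes called lower, 16.6% called higher, and 26% of genes of similar mean called lower. The median was -1.29. Foxm1 was the exception, at -0.04 ± 0.22 with overlapping arrays. Mki67 read 11.31, 11.32, 11.62 and 11.28 in the body, above all E12.5 lens arrays, and differed by -1.68 ± 0.26. The same 4 body arrays entered the comparisons at the 3 stages, and the body label spans the stages, so these differences are not matched by day.

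Cdc25b was called lower than the body at every lens stage, by -1.80 ± 0.24, -1.74 ± 0.24 and -2.39 ± 0.24. It read 8.34, 8.24, 8.22 and 8.95 in the body, and the highest of the 9 lens arrays was 7.21. At E10.5 and E11.5 the other 36 genes lay between -0.75 and 0.67 of the body.

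**Figure D3:**
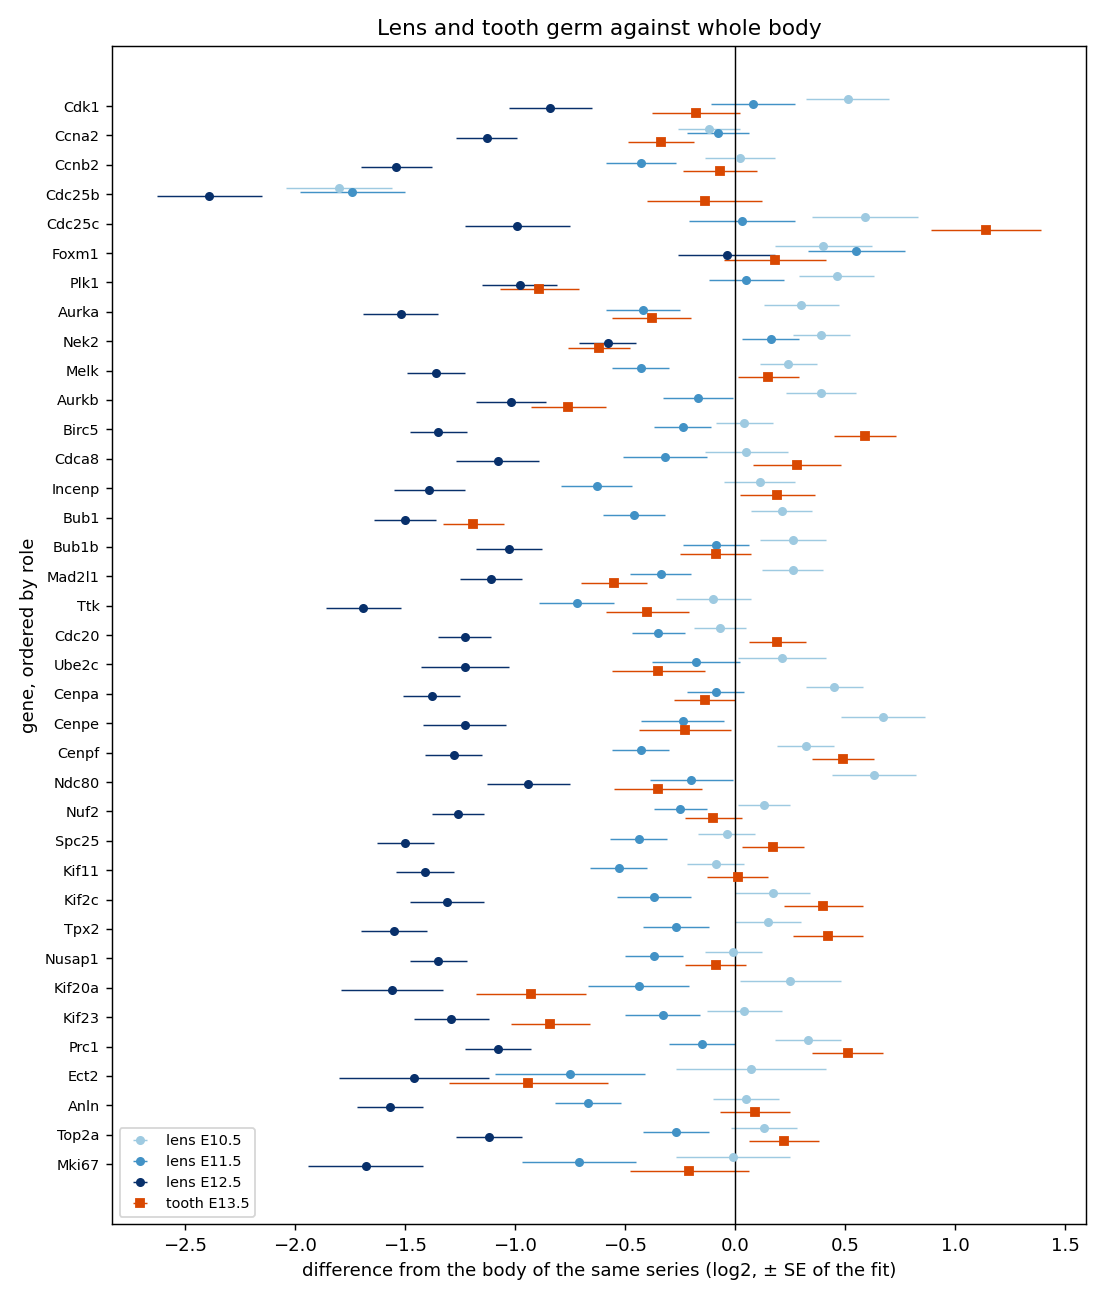
Log2 difference of lens E10.5, E11.5 and E12.5 (blue circles, light to dark) and of tooth germ E13.5 (orange squares) from the body of the same series, for each of 37 genes in order of role; lines are the SE of the fit. The dark circles lie between -0.58 and -2.39 except that of Foxm1, at -0.04, while the squares lie on both sides of 0, from -1.19 to 1.14.

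In the tooth germ at E13.5, the mitosis genes did not move as one from the body. Averaged over the 37 genes, log2 signal was 9.43, 9.57 and 9.57 in tooth germ and 9.70, 9.69 and 9.56 in the body of that series. Called lower were 8 genes, beside 25.3% of all tested genes, and called higher were 5, beside 16.6%, so both shares were below the background. The median difference was -0.10.

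The genes called higher in tooth germ were Cdc25c, Birc5, Cenpf, Tpx2 and Prc1. Cdc25c read 9.52, 9.67 and 9.79 in tooth germ and 8.61, 8.62 and 8.32 in the body, a difference of 1.14 ± 0.25. Another Cdc25c probe set was called lower in tooth germ than in the body, as given below. Birc5 was higher by 0.59 ± 0.14, Prc1 by 0.51 ± 0.16, Cenpf by 0.49 ± 0.14 and Tpx2 by 0.42 ± 0.16. Without tooth germ array 2, 3 genes were called higher, and after quantile normalization 9 were.

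The genes called lower in tooth germ were Bub1, Ect2, Kif20a, Plk1, Kif23, Aurkb, Nek2 and Mad2l1. Bub1 read 8.61, 8.82 and 8.87 in tooth germ and 10.02, 9.87 and 9.97 in the body, without overlap, a difference of -1.19 ± 0.14. Of the cytokinesis genes, Ect2 was lower by -0.94 ± 0.36, Kif20a by -0.93 ± 0.25 and Kif23 by -0.84 ± 0.18. Plk1 differed by -0.89 ± 0.18, Aurkb by -0.76 ± 0.17, Nek2 by -0.62 ± 0.14 and Mad2l1 by -0.55 ± 0.15. Ect2 was no longer called whichever of the 6 arrays was left out, with differences of -1.03 to -0.79. Among the genes called higher, Tpx2 lost its call without any 1 of 5 of the arrays and Prc1 without either of 2. All 3 tooth germ arrays had a higher BioB control, 8.56 to 8.94, than the 3 body arrays of that series, 6.19 to 7.15, so tissue and control signal cannot be told apart here.

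The difference from the body was lower in E12.5 lens than in tooth germ for 27 of the 37 genes and higher for none, tested as a difference of differences, beside 20.4% of all tested genes called lower and 19.2% called higher. The median was -1.26. It was largest for Cdc25b (-2.25 ± 0.35, adjusted p = 5.1e-05), Cdc25c (-2.13 ± 0.34, adjusted p = 7e-05) and Tpx2 (-1.97 ± 0.22, adjusted p = 7.5e-07). It was smallest for Nek2 (0.03 ± 0.20), Plk1 (-0.09 ± 0.25) and Foxm1 (-0.22 ± 0.32), none of which passed the test. Tissue, day and series all differ in this comparison and cannot be told apart. Other probe sets of Cdc25c and Tpx2 differed in call from the sets used in tooth germ against its body, as given below.

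The bodies of the 2 series were compared as a check on levels across series. Of the 37 genes, 12 were called lower and 13 higher in the tooth-series body, beside 31.8% of all tested genes in each direction. Cdca8, for example, read 12.76, 12.75 and 12.95 in the tooth-series body and 10.62, 10.68, 10.07 and 10.25 in the lens-series body. Another Cdca8 probe set was called lower in the tooth-series body, by -1.82 ± 0.24. Incenp read 2.13 higher on the probe set used and was called lower on 2 others, at -2.23 ± 0.17 and -2.27 ± 0.18. In all, 7 of 28 other probe sets above the filter level had the opposite call to the set used, among sets of Ccna2, Cdca8, Incenp, Cenpf and Tpx2. Levels of a gene were therefore compared within a series only.

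Probe sets of one gene were compared in every contrast. Of the 37 genes, 13 had 1 probe set and 24 had several, which gave 43 other probe sets, 28 of them with a mean above the filter level. From lens E10.5 to E12.5 all 28 had a negative difference, from -2.43 to -0.12, as did all 37 used. The call was the same for 24 of the 28. The other 4 were a Foxm1 set that was called lower where the set used was not, and sets of Cenpa (-0.12 ± 0.18) and Tpx2 (-0.39 ± 0.24 and -0.36 ± 0.28) that were not called where the sets used were. At the first step 21 of 28 had the same call as the set used; Incenp, Cenpa and Cenpf had sets that were not called, and a Top2a set was called lower. At the second step 18 of 28 did, with sets of Nek2, Incenp, Cenpa, Cenpe, Cenpf, Kif2c and Tpx2 not called and a Foxm1 set called lower.

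Against the body at E10.5, 20 of the 28 had the same call, 7 were called higher and 0 lower. Their differences ran from -0.26 to 2.04, where the sets used ran from -1.80 to 0.67. Against the body at E11.5, 15 of the 28 had the same call, 5 were called higher and 0 lower. Their differences ran from -0.6 to 1.24, with 15 below 0 and 13 above, where the sets used ran from -1.74 to 0.55. There, 1 Incenp set had the opposite call, at 1.24 ± 0.28, where the set used read -0.63 ± 0.16. Against the body at E12.5, 22 of the 28 had the same call and 1 had the opposite call. It was a Top2a probe set that was called higher, at 0.44 ± 0.15, where the set used read -1.12 ± 0.15. Sets of Incenp (0.58 ± 0.28) and Cenpa (0.31 ± 0.17) were positive and not called, and 1 of Cenpf and 2 of Tpx2 were negative and not called. For the lens difference minus the tooth difference, 20 of 28 had the same call, 21 were called lower and 0 higher. All 28 were negative there, from -2.13 to -0.07. In tooth germ against its body 13 of 28 had the same call. A Cdc25c set was called lower there, at -0.38 ± 0.14, opposite to the set used, and a Cenpa set was called higher, at 1.75 ± 0.18, where the set used was not called. Sets that named Foxm1, Incenp, Bub1b or Top2a were called higher and 1 that named Ccna2 lower where the set used was not called, and sets of Nek2, Aurkb, Cenpf, Tpx2, Kif23 and Prc1 were not called where the set used was.

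**Figure D4:**
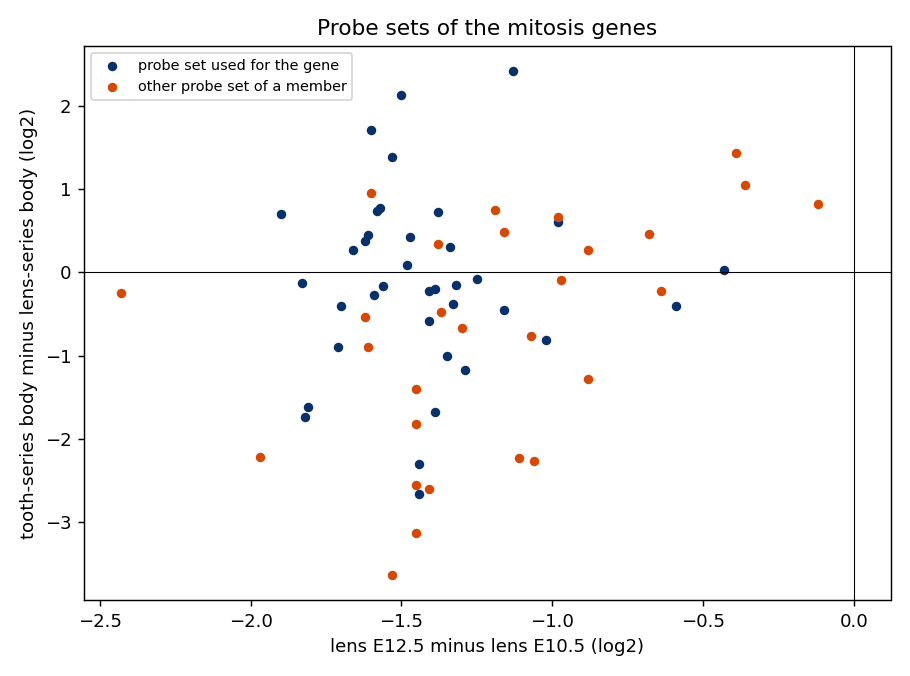
Each point is a probe set of a mitosis gene with a mean above the filter level, either the one used (37, dark blue) or another of the same genes (28, orange). The horizontal axis is the log2 difference of lens E12.5 from E10.5, negative for every point; the vertical axis is that of the tooth-series body from the lens-series body, which spans -3.64 to 2.42.

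Other genes of division were read from fixed lists, which had been drawn up with earlier results of these data known. Of 63 other mitosis genes, 54 were called lower from lens E10.5 to E12.5 and none higher, with a median of -1.21. Of all tested genes, 13.2% were called lower and 8.91% higher in this comparison. Cdca5, which protects sister cohesion, fell by 1.74 ± 0.20, Tacc3, a spindle protein, by 1.67 ± 0.23 and Cenpw, a kinetochore protein, by 1.65 ± 0.21. None of 12 core subunits of the anaphase promoting complex was called in either direction, with a median of -0.25, and their difference from the other mitosis genes was not tested.

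Of 22 genes of G1/S and DNA replication, 19 were called lower and 1 higher, beside 13.2% and 8.91% of all tested genes. Their median was -1.09. Cdc6, which loads the replicative helicase, fell by 1.99 ± 0.28, Mcm5, a helicase subunit, by 1.53 ± 0.15 and Rrm2, of ribonucleotide reductase, by 1.51 ± 0.14, while Pcna, the sliding clamp, fell by 0.81 ± 0.12. Ccnd2, a D-type cyclin of G1, rose by 0.65 ± 0.15.

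A list of 17 genes held parts of the DREAM and MuvB complexes together with E2F factors, which repress or activate cell cycle genes. Of these, 5 were called lower and 2 higher, beside 13.2% and 8.91% of all tested genes, with a median of -0.27. The share called higher was near that of all tested genes. E2f7 fell by 1.69 ± 0.21, E2f8 by 1.45 ± 0.19 and Mybl2, the B-Myb activator, by 1.09 ± 0.26. Rbl2, which encodes the pocket protein p130, rose by 1.10 ± 0.23, and E2f5 by 0.57 ± 0.16. Of 6 inhibitors of cyclin-dependent kinases, 3 were called higher and none lower, beside 8.91% and 13.2% of all tested genes. Cdkn2b rose by 2.65 ± 0.28, Cdkn1c, which encodes p57, by 1.25 ± 0.17 and Cdkn1a by 1.04 ± 0.24.

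Markers of cell types also moved between these lens stages. Of all tested genes, 8.91% were called higher and 13.2% lower from E10.5 to E12.5. Of 10 lens fibre markers, 8 were called higher at E12.5 than at E10.5, with a median of 3.64. The third E10.5 array, whose fibre markers went against its stage label, was included. The summed signal of the 10 markers on the linear scale was 3882.9 to 70969.6 at E10.5, 21249.7 to 42161.9 at E11.5 and 83078.6 to 91387.3 at E12.5, against 461.0 to 581.6 in the body. Of 7 surface ectoderm markers, 5 were called lower, namely Epcam, Krt8, Krt18, Cldn6 and Cdh3, while Krt5 and Krt14, keratins of stratified epithelium, were not. The sum of all 7 was 2945.3 to 4211.3 at E10.5, 774.6 to 909.1 at E11.5 and 369.4 to 466.8 at E12.5. Of 7 mesenchyme markers 4 were called higher and 2 lower, with sums of 4347.8 to 5216.6, 6964.9 to 7814.6 and 5261.0 to 6729.7, against 20230.1 to 23628.6 in the body. No marker on these arrays has a signal of 0. The part of these cell types in the fall of the mitosis genes was not tested.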

How the data were processed

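Arrays of 19 RNA samples were used as the authors deposited them: a value table of linear intensity for 45101 probe sets, made with RMA and affy 0.7 per the submitters' processing notes. The scale was read from the values, which run from 5.4 to 25043.5. The genome build of the probe annotation is not given in the sources used here. Log2 of the deposited intensity was taken here with no further normalization. A probe set was kept if it named 1 gene (34945 did, 932 named several and 9160 none), and each gene took the set with the highest mean. Genes above 44.1 on at least 3 arrays were tested. limma 3.58.1 in R 4.3.3 (lmFit and eBayes) was fitted with 1 mean for each of 6 groups over all arrays, with p-values adjusted by Benjamini-Hochberg over 13320 genes and called under 0.05. The fit was tested on simulated data. Errors after ± are SE of this fit.

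All listed members are named; of other lists, up to 3 called genes per direction with the largest change, and Mybl2, Pcna and Cdkn1c always. Members and lists were chosen with earlier results of these data known. Genes of similar mean are the other tested genes between the lowest and highest member means, 7.35 and 11.32. No 2 arrays shared more than 2.05% of identical values. Same-numbered E11.5 and E12.5 lens arrays deviated together (correlations 0.61, 0.64 and 0.41 over genes). This pairing comes from the data, as the labels only number the arrays. E10.5 array 1 also deviated with E11.5 array 1 (0.576) and E12.5 array 1 (0.502), but array 2 did not (-0.059 and -0.028). For E10.5 array 3 the values were 0.254 and 0.329. Lens-series body arrays ran from -0.527 to 0.244 against lens arrays of their number. Tooth germ and its body did not pair (-0.078 to 0.026). At E11.5 and E12.5 array 1 was the high-control array, so number and control signal cannot be told apart in this pairing. Alternatives were another filter, median centring, quantile normalization, the mean of a gene's probe sets, fewer arrays, a variance trend, a replicate block, the control signal as a block or within its sets, a stricter threshold and each array left out. A replicate block on the E11.5 and E12.5 arrays alone was chosen after seeing the data.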

Additional observations from a re-analysis of the deposited data

Results flagged for a closer look

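Outlying body arrays were found for 3 of the 37 genes tested in the 4 lens-series body arrays, with chance flagging about 1 group in 20. Cdc25b read 8.95 in body array 4, against 8.22 to 8.34 on the others. Bub1b read 10.33 in body array 3, against 9.97 to 9.99. Mki67 read 11.62 in the same array, against 11.28 to 11.32. Body array 3 has a high BioB control and body array 4 a low one.

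The difference from the body was lower in E12.5 lens than in E13.5 tooth germ for 27 genes, by limma's test of the difference itself. Tissue, day and series cannot be told apart in it. Cdc25b differed by -2.25, Cdc25c by -2.13 and Tpx2 by -1.97 on the log2 scale. In tooth germ against its body, other probe sets of Cdc25c and Tpx2 differed in call from the sets used.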

How the results depend on the processing

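Over lens E10.5 to E12.5 the count of genes called lower was 35 or 36 under every alternative run, 35 whichever array was left out, and against the body at E12.5 it was 36 whichever array was left out. Counts moved elsewhere as follows. Within the high-control arrays E11.5 and E12.5 have 1 array each, and within the low-control arrays E10.5 has 1; these tests take the spread of such a single array from the remaining groups. For E11.5 against E10.5, 10 genes called lower became 6 with the mean of all probe sets, 0 with only the arrays compared, 6 within the high-control and 0 within the low-control arrays, and 2 at an adjusted p under 0.01; leaving out single arrays gave 1 to 12. For E12.5 against E11.5, 34 became 12 with only the arrays compared and 2 within the high-control arrays, and 28 to 33 without single arrays. For the difference of the steps, 0 became 1 with the mean of probe sets and 1 with a variance trend, and 0 to 1 without single arrays. For E10.5 against the body, 6 called higher became 10 with centred arrays, 11 with the mean of probe sets, 1 within the low-control arrays and 0 at the stricter threshold, and 1 to 6 without single arrays. For E11.5 against the body, 13 called lower became 5 with centred arrays, 7 with the mean of probe sets, 5 within the high-control arrays and 5 at the stricter threshold, and 9 to 12 without single arrays. Called higher there, 0 became 1 with centred arrays, 1 with quantile normalization, 2 with the mean of probe sets, 1 with the replicate block and 1 within the high-control arrays, and 0 to 1 without single arrays. For tooth germ against its body, 5 called higher became 9 with quantile normalization and 3 at the stricter threshold, and 3 to 5 without single arrays; 8 called lower became 7 to 8. Lens against tooth gave 25 to 30 without single arrays. Between the bodies, 13 called higher became 6 with the replicate block, and single arrays gave 11 to 13 in each direction. The replicate block changed no other count by over 1.5 times. Some settings leave fewer arrays. The cause of these shifts was not tested.

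Single genes changed sign with the mean of all their probe sets: against the body Ttk read 0.50 at E10.5, and Incenp 0.23 and Top2a 0.39 at E11.5; in tooth germ Ttk read 0.35 and Cenpa 0.72; between the bodies Incenp read -0.27, Bub1 0.37, Ttk 0.30, Cenpa 0.31, Cenpf -0.01, Kif2c -1.41 and Tpx2 0.37. Arrays with 3 or 4 samples a group limit how small a difference can be called.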

Other observations

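Other marker lists were read in the same fit. From lens E10.5 to E12.5 none of 6 neuronal, 5 neural retina and 4 pigment cell markers was called. Of 6 general lens markers 2 were called higher and none lower, of 6 erythroid markers 2 higher, of 6 endothelial markers 1 higher, of 7 tooth germ markers 2 higher, and of 7 macrophage markers 1 higher and 1 lower. Of all tested genes 8.91% were called higher and 13.2% lower, so 1 of 6 or 1 of 7 is near the share of all genes. In tooth germ against its body, where 16.6% of all tested genes were called higher and 25.3% lower, 6 of 7 tooth germ markers and 4 of 7 surface ectoderm markers were called higher, and all 6 neuronal markers lower.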
